A study of Mus musculus with 15 samples.

Results

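The unfolded protein response and endoplasmic reticulum (ER) folding genes described here are 36 named genes of the 45905 in the deposited tables, and each was found by its symbol. They comprise 10 sensors and transcription factors, 16 chaperones and folding enzymes, 7 genes of ER-associated degradation and translocation, and 3 targets of the integrated stress response. Their poly(A) RNA was measured in 15 mouse libraries, 9 from organoids (cultured epithelial structures grown from gut) and 6 from gut tissue, in 5 groups of 3. The study addressed loss of Jup, which encodes the junction protein plakoglobin, from the intestinal epithelium.

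The Tamoxifen organoids carried the code T41 and the genotype iVilCre ERT2JUPfl/fl, in which a Cre recombinase driven by the villin promoter is activated by tamoxifen and acts on loxP-flanked Jup. The DMSO and nativ organoids both carried the code T75 and the genotype JUPfl/fl, with no Cre in the title. Each code is shared by all replicates of its group, so the organoid replicates may be repeated cultures of 1 line, and line, Cre, and treatment cannot be told apart between T41 and T75. Gut tissue was described as ctr (T50, T51 and T52) or PG_KO (T47, T48 and T56). The gut titles conflict with these descriptions: the ctr libraries are titled iVilCre ERT2JUPfl/fl, and the PG_KO libraries JUPfl/fl with DSS colitis, an inflammation caused by dextran sodium sulfate in drinking water. Gut libraries were grouped by description, and genotype and colitis cannot be told apart between them. Ages were not given.

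Jup was measured at 69.0, 70.9 and 71.2 CPM (reads scaled by the library total) in the Tamoxifen organoids, against 359.6, 378 and 414 CPM in DMSO and 386, 275 and 395 CPM in nativ organoids. In gut it was 302, 375 and 495 CPM in ctr and 75.2, 82.8 and 80.3 CPM in PG_KO libraries. Low Jup thus went with the descriptions Tamoxifen and PG_KO, and against the gut titles. Libraries held 23194154 to 30744342 assigned reads, and 3 reads in a library corresponded to 0.0976 to 0.129 CPM.

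Several libraries and groups stood apart before any member was considered. The T75 organoids held 278 to 439 CPM summed over 10 intestinal epithelial markers, 6 of which reached 1 CPM in each T75 group, with Isx at 0 reads in DMSO, whereas the Tamoxifen organoids held 4120 to 4160 CPM with all 10 reached. Summed goblet cell markers were 26.9 to 145 CPM in T75 organoids and 1050 to 1110 CPM in Tamoxifen organoids. General epithelial markers were high in all organoids, at 6200 to 8920 CPM. In gut, ctr replicate 3 had 10600 CPM of general epithelial markers, against 6590 and 7400 CPM in the other ctr libraries and 10700 to 13200 CPM in PG_KO. It also had the lowest smooth muscle (488 CPM), fibroblast (919 CPM) and plasma and B cell (253 CPM) marker sums of the ctr group. In bulk RNA, fewer cells of a type and less RNA per cell cannot be told apart.

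Proteins that enter the ER fold with the help of chaperones such as BiP and of disulfide isomerases, and those that fail are returned to the cytosol and degraded. When unfolded protein accumulates, 3 membrane sensors signal to the nucleus: IRE1 (Ern1, and Ern2 in mucosal epithelium) splices Xbp1 mRNA, PERK (Eif2ak3) phosphorylates a translation factor and thereby favours translation of Atf4, and ATF6 is cleaved to release a transcription factor. Their outputs overlap on folding and degradation genes, and ATF4 also drives amino acid genes and, through CHOP (Ddit3), genes linked to cell death. Intestinal secretory cells carry a large ER and depend on this pathway. Total mRNA, as measured here, does not show splicing of Xbp1 or activity of the sensors.

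Promoters are where the pathway's factors act, so stretches upstream of the start that held a known element are shown for 10 members. RefSeq promoters (GRCm38.p6, from 250 bases before to 50 after the start) were matched for 31 of the 36 genes. The element ERSE, searched on both strands as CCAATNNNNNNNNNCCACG, was in 7 of these 31 promoters (22.6%) and in 39 of all 32851 promoters (0.119%). ERSE-II, searched as ATTGGNCCACG, was in 2 of 31 (6.45%), namely Herpud1 and Dnajb11, and in 0.0365% of all promoters. The amino acid response element CARE, searched as TGATGNAA, was in 4 of 31 (12.9%), namely Asns, Chac1, Herpud1 and Trib3, and in 3.97% of all. The element UPRE, searched as TGACGTGG, was in 0 of 31 and in 0.676% of all. The sequences below are 5′ to 3′ on the gene's strand, with the element in capitals; some read as the reverse complement. Dnajb11, whose ERSE-II lies after the start, and Trib3 are not shown. A match describes the letters only.
Hspa5 (chr2:34772015-34772053, plus strand, ERSE): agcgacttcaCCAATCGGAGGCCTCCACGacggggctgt
Pdia6 (chr12:17266481-17266519, plus strand, ERSE): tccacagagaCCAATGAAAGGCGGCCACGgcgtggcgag
Dnajc3 (chr14:118937817-118937855, plus strand, ERSE): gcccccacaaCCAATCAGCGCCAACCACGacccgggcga
Canx (chr11:50325790-50325828, minus strand, ERSE): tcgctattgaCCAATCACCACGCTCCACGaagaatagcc
Calr (chr8:84847065-84847103, minus strand, ERSE): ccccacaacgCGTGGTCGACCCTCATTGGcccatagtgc
Syvn1 (chr19:6046522-6046560, plus strand, ERSE): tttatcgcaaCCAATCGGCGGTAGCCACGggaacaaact
Hsp90b1 (chr10:86705523-86705666, minus strand, ERSE at both ends): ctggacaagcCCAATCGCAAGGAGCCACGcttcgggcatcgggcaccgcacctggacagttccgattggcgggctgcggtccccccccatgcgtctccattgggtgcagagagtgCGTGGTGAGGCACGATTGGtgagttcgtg
Herpud1 (chr8:94386307-94386397, plus strand, CARE then ERSE-II): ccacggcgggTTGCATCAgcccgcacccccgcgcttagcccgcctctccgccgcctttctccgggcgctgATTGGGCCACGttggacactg
Chac1 (chr2:119351039-119351066, plus strand, CARE): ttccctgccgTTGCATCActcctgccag
Asns (chr6:7693215-7693242, minus strand, CARE): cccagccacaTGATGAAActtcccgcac

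Per length of transcript, the chaperones made up most of the signal. In TPM (reads scaled by gene length and library), the 16 chaperones and folding enzymes summed to 3784 ± 268 in DMSO, 3951 ± 330 in nativ and 4827 ± 18.1 in Tamoxifen organoids, and to 5352 ± 1727 in ctr and 7437 ± 790 in PG_KO gut (SD, n = 3 each, as for all group values). The 10 sensors and factors summed to 1256 ± 145 TPM in DMSO, 1195 ± 79.1 in nativ and 509 ± 12.5 in Tamoxifen organoids, and to 771 ± 153 in ctr and 822 ± 71.9 in PG_KO gut. All 36 genes took 0.561% to 0.995% of TPM in a library. P4hb, a protein disulfide isomerase, had the highest TPM of the 36 in every organoid group, at 781 ± 78.5 in DMSO, 917 ± 60.9 in nativ and 1399 ± 9.39 in Tamoxifen. Calr, the lectin chaperone calreticulin, ranked first in gut, at 1195 ± 454 TPM in ctr and 1577 ± 175 in PG_KO, intervals that overlapped. Xbp1 ranked second in DMSO (690 ± 97.3 TPM) and nativ (621 ± 55.9 TPM) and 12th in Tamoxifen organoids (143 ± 3.31 TPM). Ern2, the IRE1 form of mucosal epithelium, ranked last in the organoids and 30th in gut, where Trib3 and Chac1 ranked lowest.

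The first comparison set Tamoxifen organoids against DMSO organoids. Of the 36 genes, 8 were higher and 13 lower at an adjusted p below 0.05 (edgeR quasi-likelihood test, adjusted over the 16449 genes tested), and 15 were not called. Among all tested genes 33.9% were higher and 32.4% lower, so neither share of the members stands out by itself. The groups did not overlap for 11 members on the higher side and 15 on the lower, against 76.1% of all genes. The median log2 change was −0.13 over the members and 0.02 over all tested genes. By role the genes divided: of the sensors and factors 1 (Ern2) rose and 8 fell, of the chaperones 6 rose and 3 fell, of the degradation genes 1 rose and 1 fell, and of the stress response targets 1 fell. The genes are given below by role together with the comparison of the same Tamoxifen libraries with nativ organoids, which is not independent of the first. In that comparison 6 members rose and 15 fell, against 33.5% higher and 33.5% lower among all genes, and groups did not overlap for 14 and 16 members, against 74.6% of all genes. The median log2 change there was −0.09 over the members and 0.01 over all genes, or 0.03 and 0.13 when libraries were scaled by their totals.

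**Figure D1:**
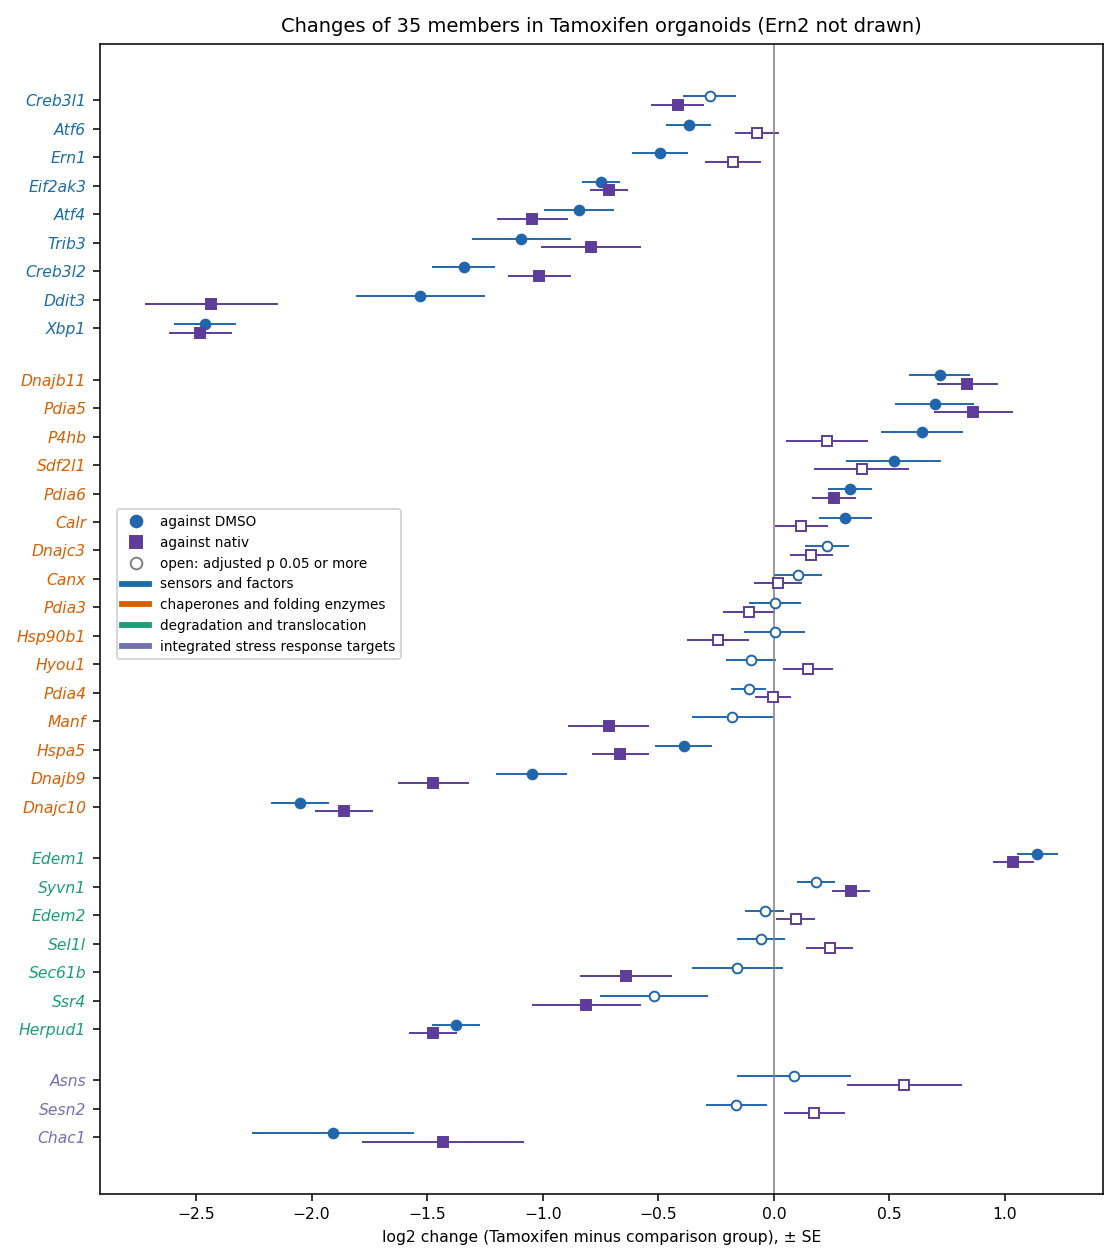
Log2 change (horizontal axis, ± SE) of each member in Tamoxifen organoids against DMSO (circles) and against nativ organoids (squares), with 3 libraries a group; filled symbols have an adjusted p below 0.05, and gene names are coloured by role. Sensors and factors lie left of zero, with Xbp1 near −2.46 and −2.48, while chaperones lie on both sides; Ern2, at or near 0 reads in DMSO and nativ, is not drawn.

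Xbp1, the factor that IRE1 splices, was among the most reduced members in both comparisons. It was at 150.6, 147.8 and 146.5 CPM in Tamoxifen organoids, 735, 738 and 867 CPM in DMSO and 688, 803 and 783 CPM in nativ. Every Tamoxifen value lay far below every T75 value. Xbp1 (chromosome 11, 5520641 to 5525993, plus strand) fell by 2.46 on the log2 scale against DMSO (SE 0.135, edgeR adjusted p = 5.6e-08) and by 2.48 against nativ (SE 0.136, edgeR adjusted p = 5.54e-08). Of its upstream kinases, Ern1 read 31.2, 29.9 and 28.4 CPM in Tamoxifen against 46.3, 32.4 and 41.8 CPM in DMSO, and was called against DMSO (log2 change −0.49) but not against nativ (−0.17). Ern2 (chromosome 7, 122169893 to 122186239, minus strand) showed the opposite pattern. It was at 7.36, 5.66 and 6.05 CPM in Tamoxifen organoids, with 1 read in 1 of the 3 DMSO libraries and 0 reads in every nativ library.

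Ern2 passed the low-count filter only through the Tamoxifen group, where it is high, so its levels are a description and its inclusion among the higher members supports nothing. Over the groups, 563 reads in Tamoxifen stood against 1 in DMSO, a ratio of CPM of 542 with a 95% exact interval from 96.8 to 21400 that covers counting error only. Against nativ it was at least 187-fold higher, taking 3 reads over the group as the floor. The fitted log2 changes of 8.57 (SE 0.475) and 10.47 (SE 0.569) depend on the prior count. The median log2 change of the sensors and factors was −0.79 against DMSO and −0.75 against nativ. Ern2 was the only positive value in either, so any positive size for it gives these medians. Between the organoid groups, Ern2 moved together with the intestinal and goblet cell marker sums given above. In gut the groups differed in this. Within ctr, Ern2 was highest in replicate 3 (38.1 CPM), where the goblet sum was lowest (3440 CPM). Within PG_KO, Ern2 was at 8.63, 21.7 and 21.5 CPM and the goblet sum at 500, 1390 and 977 CPM, in the same order. Of 7 markers of Paneth cells, another secretory type, 1 reached 1 CPM in each T75 group and all 7 did in Tamoxifen organoids. Their sums were 1680 to 2820 CPM in T75 and 4370 to 4470 CPM in Tamoxifen. The T75 sums came nearly all from the 1 marker that reached 1 CPM there. That marker was called lower in Tamoxifen against DMSO (log2 change −3.73), whereas the other 6 were called higher. Those 6 averaged below 1 CPM in each T75 group and were high in Tamoxifen, so their calls are a description only. The part of these cell types was not tested.

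Eif2ak3, Atf4, Ddit3 and Trib3 fell in Tamoxifen organoids in both comparisons, whereas the ATF4 targets given further below did not move one way. Eif2ak3, the kinase PERK, was at 35.9, 39.5 and 39.1 CPM in Tamoxifen, 61.2, 59.4 and 62.8 in DMSO and 62.5, 52.8 and 58.0 in nativ, with no overlap. It fell by 0.75 against DMSO (SE 0.0821, edgeR adjusted p = 1.43e-05) and by 0.71 against nativ (SE 0.0821, edgeR adjusted p = 2.06e-05). Atf4, its main transcriptional effector, was at 182, 179.5 and 173 CPM against 381, 261 and 275 in DMSO and 317, 367 and 325 in nativ. It fell by 0.84 against DMSO (SE 0.152, edgeR adjusted p = 0.000613) and by 1.05 against nativ, again with no overlap. Ddit3, which encodes the death-linked factor CHOP, was at 22.9, 24.3 and 23.4 CPM in Tamoxifen, 39.9, 79.5 and 74.5 in DMSO and 109.8, 146 and 90.3 in nativ. All T75 values were above all Tamoxifen values, and the T75 groups themselves did not overlap. The log2 change of Ddit3 was −1.53 against DMSO (edgeR adjusted p = 0.000647) and −2.43 against nativ (SE 0.286, edgeR adjusted p = 2.61e-05). Trib3, a CHOP-induced pseudokinase that inhibits AKT, was at 18.7, 17.3 and 19.6 CPM, against 53.9, 25.3 and 34.6 in DMSO and 27.4, 30.0 and 30.9 in nativ, and fell in both.

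Among the membrane-bound factors that are cleaved at the Golgi, the members differed in size of change. Creb3l2 was at 37.2, 42.7 and 34.8 CPM in Tamoxifen, 96.2, 87.1 and 94.3 in DMSO and 81.2, 50.9 and 83.8 in nativ, without overlap. It fell by 1.34 against DMSO (SE 0.136, edgeR adjusted p = 7.98e-06) and by 1.01 against nativ (SE 0.135, edgeR adjusted p = 6.69e-05). Atf6 itself was at 78.2, 80.6 and 75.7 CPM, against 107.4, 88.1 and 93.8 in DMSO and 82.4, 61.6 and 84.6 in nativ. It was called lower against DMSO (−0.37) and not against nativ (−0.07), where the ranges overlapped. Creb3l1 was called lower against nativ (−0.42) and not against DMSO (−0.28, adjusted p = 0.0531). The median coefficient of variation over all members was 2.91% in Tamoxifen organoids, 10.2% in DMSO and 10.8% in nativ. Among the sensors and factors plotted by library, that of the Tamoxifen values ran from 1.4% for Xbp1 to 10.5% for Creb3l2 and 14% for Ern2.

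**Figure D2:**
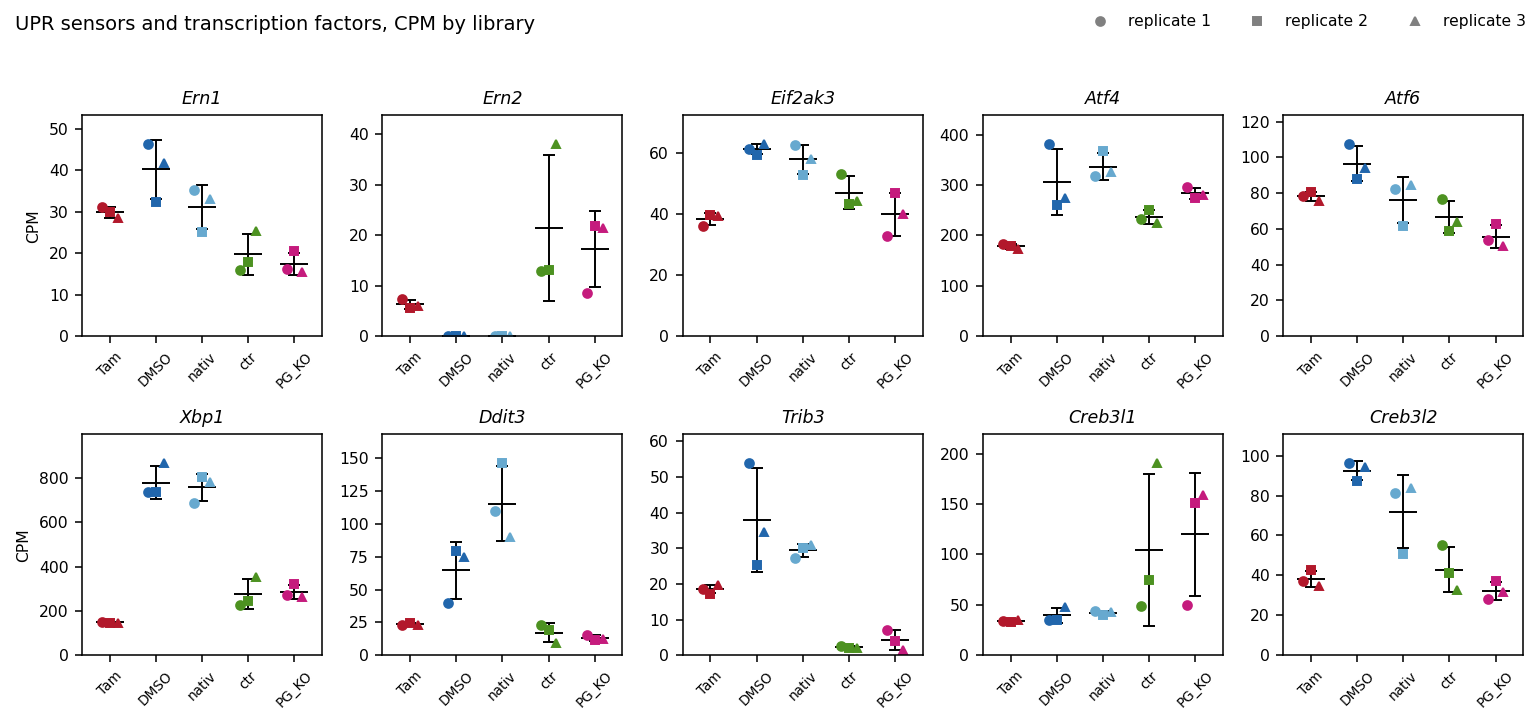
CPM (vertical axes, from 0) of the 10 sensors and transcription factors in each library of the 5 groups; marker shapes are replicates, and bars are the group mean ± SD (n = 3). Xbp1 is at 146.5 to 150.6 CPM in Tamoxifen organoids and 688 to 867 CPM in DMSO and nativ, while Ern2 is near 0 in DMSO and nativ only among the 5 groups.

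The chaperones moved in both directions, and the ER's most abundant HSP70 was among those that fell. Hspa5, which encodes BiP, was at 529, 533 and 539.6 CPM in Tamoxifen, 595, 705 and 699 in DMSO and 767, 782 and 782 in nativ. Every Tamoxifen value was below every T75 value. Hspa5 (chromosome 2, 34772090 to 34776529, plus strand) was lower by a log2 change of −0.39 against DMSO and −0.66 against nativ (SE 0.123, edgeR adjusted p = 0.000666 for nativ). The call against DMSO was lost without DMSO replicate 2 or without Tamoxifen replicate 1. Larger falls were seen in J-domain partners of BiP. Dnajc10, a disulfide reductase that acts in degradation, was at 77.7, 76.2 and 76.0 CPM in Tamoxifen, 336.5, 246 and 329 in DMSO and 235, 236 and 298 in nativ. Dnajc10 (chromosome 2, 80315446 to 80354055, plus strand) fell by 2.05 against DMSO (SE 0.126, edgeR adjusted p = 1.48e-07) and by 1.86 against nativ (SE 0.125, edgeR adjusted p = 3.19e-07). Dnajb9, a co-chaperone that restrains IRE1, was at 19.5, 21.4 and 19.9 CPM against 33.8, 43.0 and 42.9 in DMSO and 45.7, 56.8 and 51.5 in nativ. It fell by 1.05 (SE 0.152, edgeR adjusted p = 0.000125) and by 1.47 (SE 0.153, edgeR adjusted p = 9.94e-06).

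Other folding genes rose. Dnajb11, another J-domain partner of BiP, was at 95.4, 93.1 and 97.2 CPM in Tamoxifen, 69.8, 46.2 and 50.4 in DMSO and 49.8, 48.9 and 48.2 in nativ, with no overlap. It rose by 0.72 against DMSO (SE 0.133, edgeR adjusted p = 0.000726) and by 0.84 against nativ (SE 0.133, edgeR adjusted p = 0.000249). Pdia5, a disulfide isomerase that acts on ATF6, was at 22.3, 19.8 and 19.5 CPM against 15.2, 11.6 and 9.51 in DMSO and 9.14, 10.5 and 11.5 in nativ. It rose by 0.70 (SE 0.171, edgeR adjusted p = 0.00429) and by 0.86 (SE 0.172, edgeR adjusted p = 0.00112). P4hb was at 1831, 1853 and 1858 CPM in Tamoxifen, 1002, 1206 and 1177 in DMSO and 1228, 1683 and 1393 in nativ. All Tamoxifen values were the highest, yet P4hb was called against DMSO (0.64, SE 0.178, edgeR adjusted p = 0.0086) and not against nativ (0.23), where the nativ libraries differed widely. Pdia6, a further isomerase, was at 267, 261 and 282 CPM against 199 to 215 in DMSO and 198 to 218 in nativ, and rose by 0.33 (SE 0.0951, edgeR adjusted p = 0.0101) and 0.26. Calr and Sdf2l1, a component of the BiP complex, were called against DMSO (0.31 and 0.52) and not against nativ (0.12 and 0.38). These calls were close to the threshold. The call of Calr was lost without any 1 of the Tamoxifen libraries or DMSO replicate 1 or 3, and that of Sdf2l1 without any 1 of the Tamoxifen libraries or DMSO replicate 2 or 3. The call of Pdia6 against DMSO was lost without Tamoxifen replicate 3, and against nativ without any 1 library other than nativ replicate 2.

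The remaining chaperones were not called against DMSO. Hsp90b1, the ER HSP90 also called GRP94, was at 642, 638 and 619 CPM in Tamoxifen and 497, 634.5 and 674 in DMSO, which overlapped (log2 change 0.00). Pdia3, Pdia4, Canx, Dnajc3 and Hyou1 had log2 changes from −0.11 to 0.23. Manf, a secreted ER stress protein, was called lower against nativ (−0.71, SE 0.175, edgeR adjusted p = 0.00406) and not against DMSO (−0.18). Of the 9 members with ERSE or ERSE-II in the promoter, 8 of which are shown above, 3 were called higher and 2 lower against DMSO, with changes from −1.38 for Herpud1 to 0.72 for Dnajb11 and a median of 0.18. The 22 matched members without either element had 4 higher, 10 lower and a median of −0.33. These are descriptions of small sets, and the elements' part in the changes was not tested.

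**Figure D3:**
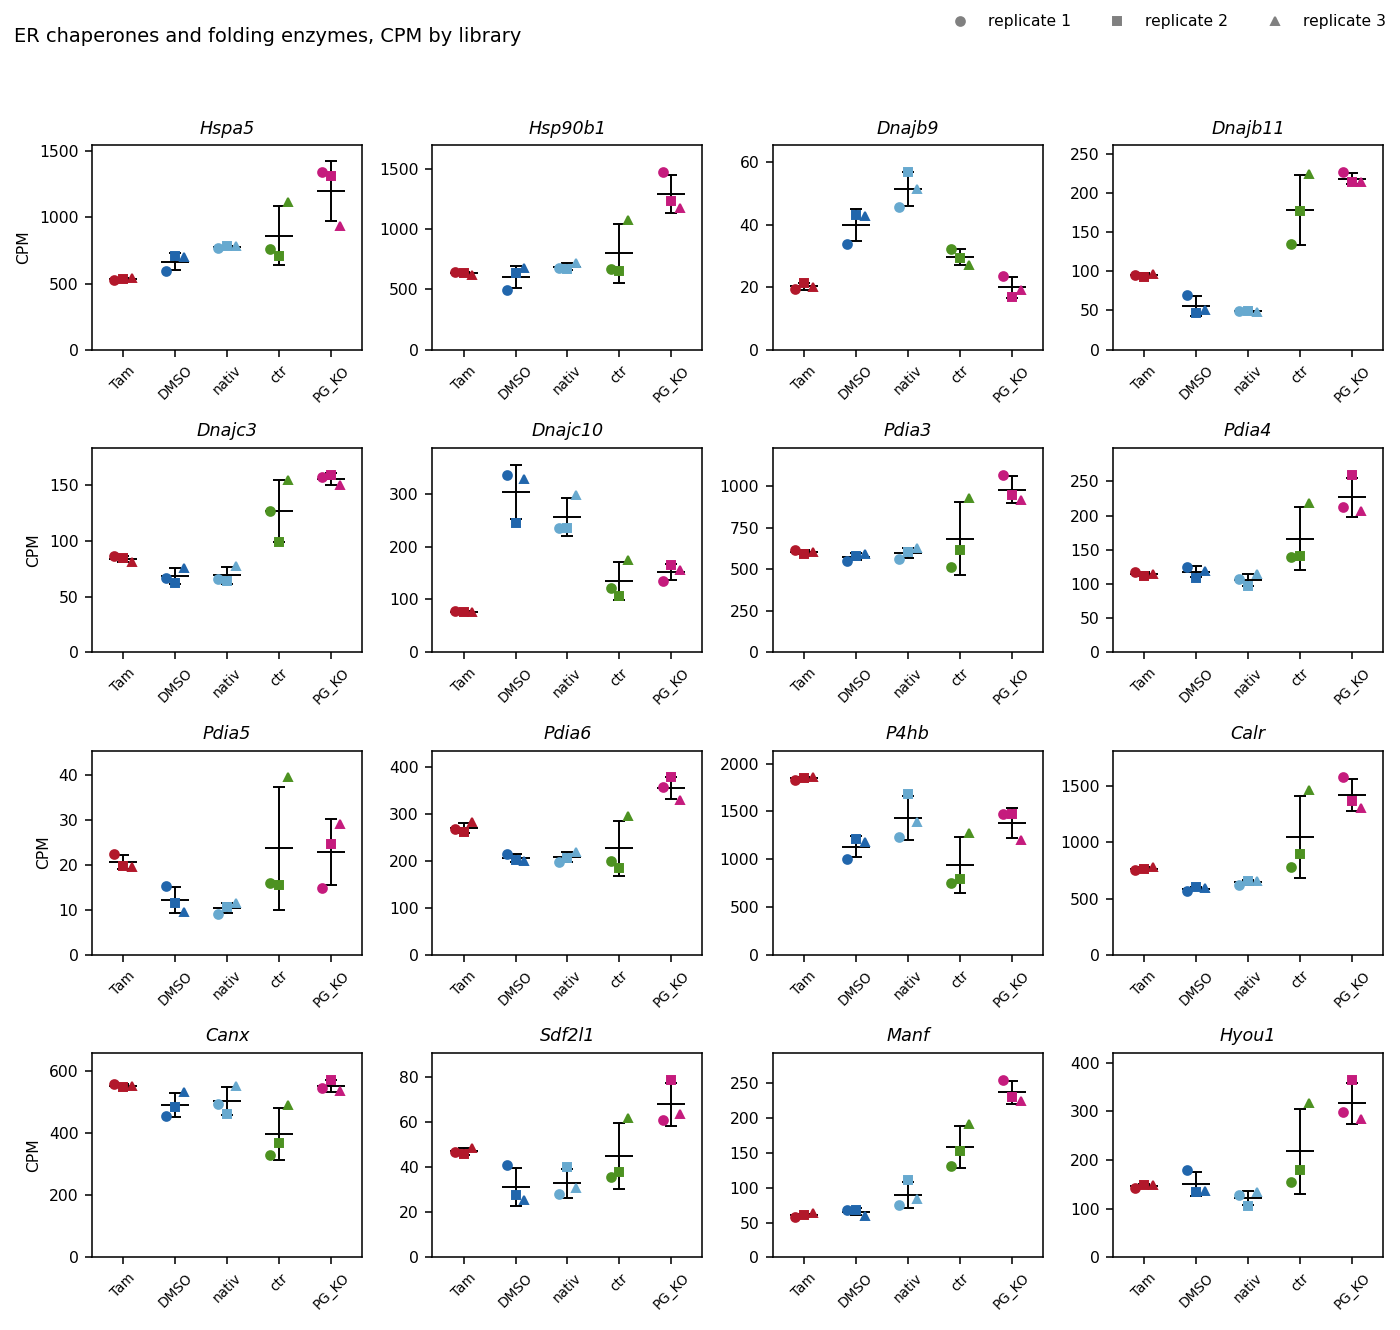
CPM (vertical axes, from 0) of the 16 chaperones and folding enzymes in each library; marker shapes are replicates, and bars are the group mean ± SD (n = 3). Dnajc10 is lowest in Tamoxifen organoids (76.0 to 77.7 CPM), and in gut the triangle of ctr replicate 3 is the highest ctr value for 15 of the 16 genes.

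Herpud1 and Edem1, of the degradation genes, moved strongly and in opposite directions. Herpud1, a ubiquitin-like scaffold of the degradation complex, was at 88.4, 84.6 and 81.3 CPM in Tamoxifen, 194, 210.5 and 225 in DMSO and 213, 221 and 215 in nativ, without overlap. Herpud1 (chromosome 8, 94386429 to 94395371, plus strand) fell by 1.38 against DMSO (SE 0.104, edgeR adjusted p = 7.16e-07) and by 1.48 against nativ (SE 0.104, edgeR adjusted p = 4.26e-07). Edem1, which hands misfolded glycoproteins to degradation, was at 158, 160.2 and 159 CPM in Tamoxifen, 64.6, 67.7 and 74.6 in DMSO and 78.3, 67.1 and 69.3 in nativ. Edem1 (chromosome 6, 108824045 to 108859356, plus strand) rose by 1.14 against DMSO (SE 0.0886, edgeR adjusted p = 8.78e-07) and by 1.03 against nativ (SE 0.0884, edgeR adjusted p = 1.92e-06). Its paralog Edem2 did not pass the test in either comparison, at −0.04 and 0.09. Syvn1, the ubiquitin ligase HRD1, was called higher against nativ (0.33, SE 0.0825, edgeR adjusted p = 0.00416) and not against DMSO (0.18, SE 0.0824, edgeR adjusted p = 0.0704). Its partner Sel1l was not called in either.

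The short translocation genes Sec61b, a subunit of the import channel, and Ssr4, of the translocon-associated complex, were called lower only against nativ. Ssr4 was at 72.3, 73.0 and 76.1 CPM in Tamoxifen, 105.2, 111.3 and 85.5 in DMSO and 90.3, 159.9 and 100.4 in nativ. It was at −0.52 against DMSO (SE 0.234, edgeR adjusted p = 0.0724) and fell by 0.81 against nativ (SE 0.235, edgeR adjusted p = 0.0104). Sec61b fell by 0.64 against nativ, with 54.2, 58.8 and 57.4 CPM in Tamoxifen against 65.0, 105.3 and 70.0. In both genes nativ replicate 2 was far above the other nativ libraries. Without it the falls were 0.44 for Ssr4 and 0.32 for Sec61b, still called (edgeR adjusted p = 0.00958 and 0.00442).

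Of the 3 stress response targets of ATF4, Chac1 fell and the others were not called. Chac1, a glutathione-degrading enzyme, was at 10.1, 10.1 and 8.94 CPM in Tamoxifen, 59.2, 16.0 and 29.7 in DMSO and 23.4, 22.1 and 26.8 in nativ. It fell by 1.91 against DMSO (SE 0.351, edgeR adjusted p = 0.000679) and by 1.43 against nativ (SE 0.349, edgeR adjusted p = 0.00396), with no overlap. Asns, asparagine synthetase, was at 135, 139 and 142 CPM, inside the range of 196, 79.2 and 102 in DMSO and above 96.2, 74.7 and 89.5 in nativ. Its log2 change was 0.09 against DMSO (SE 0.247, edgeR adjusted p = 0.773) and 0.56 against nativ (SE 0.249, edgeR adjusted p = 0.0661). DMSO replicate 1 decided the first value: without it Asns was called higher, at 0.54 (edgeR adjusted p = 0.00129). Sesn2, a stress-induced inhibitor of mTORC1, was at −0.16 (SE 0.132, edgeR adjusted p = 0.301) and 0.18 (SE 0.132, edgeR adjusted p = 0.262).

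**Figure D4:**
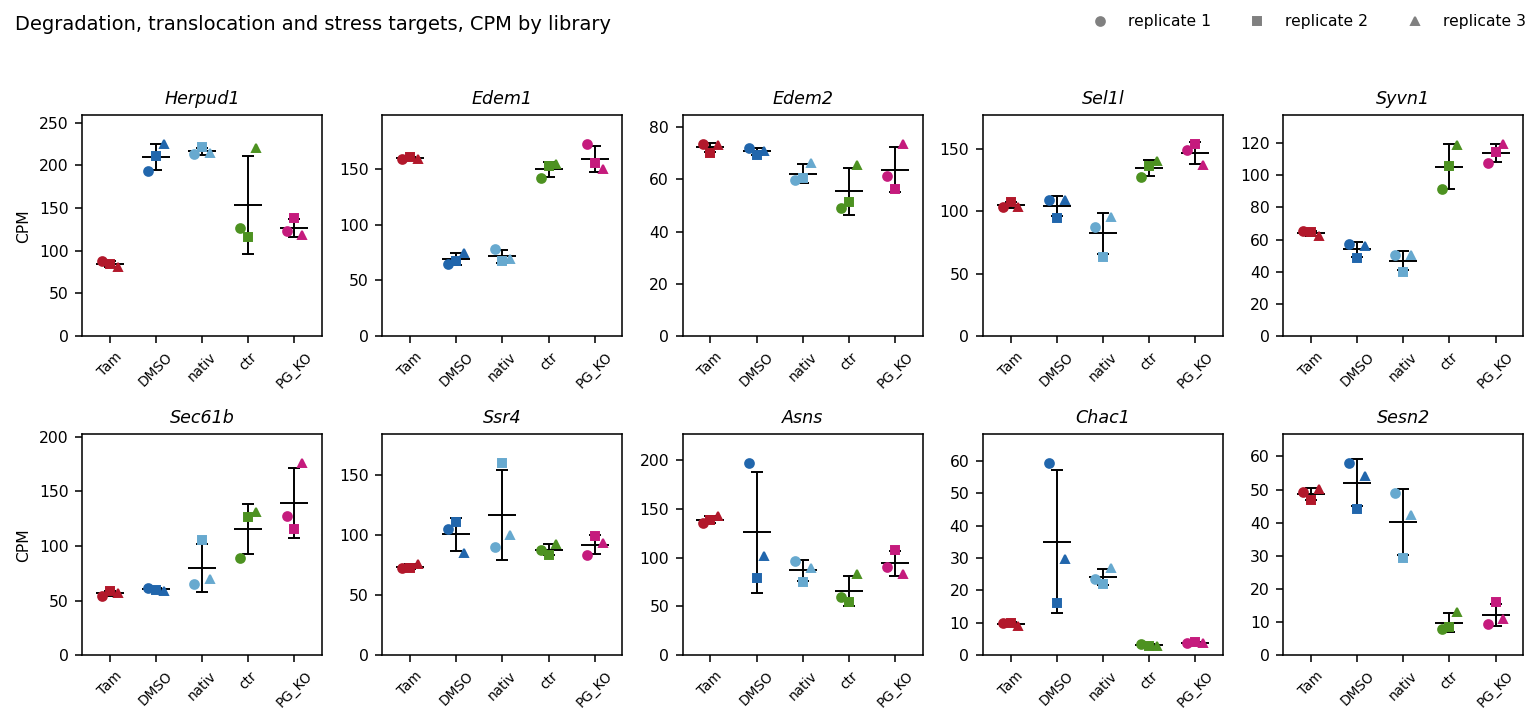
CPM (vertical axes, from 0) of the 7 degradation and translocation genes and the 3 stress response targets in each library; marker shapes are replicates, and bars are the group mean ± SD (n = 3). Herpud1 is lowest and Edem1 highest among organoids in the Tamoxifen group, and DMSO replicate 1 lies at 196 CPM for Asns and 59.2 CPM for Chac1, above the other DMSO libraries.

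Other genes of the pathway moved in both directions in the Tamoxifen organoids, where 33.9% of all genes were higher and 32.4% lower against DMSO, and 33.5% each way against nativ. Of 16 other signalling genes 3 rose and 6 fell against DMSO, and 7 rose and 6 fell against nativ. The 3 with the smallest p in both were Creb3l3, a cleaved factor of liver and gut, at 87.1 ± 3.88 CPM against 0.103 ± 0.0840 in DMSO, Ppp1r15a, the stress-induced phosphatase subunit GADD34, at 15.2 ± 0.561 against 95.8 ± 10.2, and Nupr1, a stress-induced nuclear protein, at 16.0 ± 0.497 against 214 ± 35.1. Against DMSO the log2 changes were −2.73 for Ppp1r15a and −3.81 for Nupr1. Creb3l3 was at 0.381 CPM or less in every T75 library and passed the low-count filter only through the Tamoxifen group. Its fitted log2 change of 9.57 therefore depends on the prior count, and its place among the genes that rose is a description only. Of 23 tested other folding genes 7 rose and 6 fell against DMSO, and 4 rose and 6 fell against nativ. The leading ones against DMSO were Agr2, a disulfide isomerase needed for mucin folding (181 ± 4.88 against 0.0712 ± 0.0351 CPM), Uggt2, a folding sensor of glycoproteins (log2 change −2.09), and Sil1, a nucleotide exchange factor of BiP (−1.01). Agr2, at 0.139 CPM or less in every T75 library, also passed the filter only through the Tamoxifen group, so its rise is a description only.

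Of 21 other degradation genes 3 rose and 7 fell against DMSO, and 5 rose and 8 fell against nativ. Those with the smallest p against DMSO were Erlec1 (−0.96), a lectin, Ube2g2 (−0.93), a ubiquitin-conjugating enzyme, and Derl3 (−2.25), a channel component. Of 23 genes of ER entry and glycosylation 7 rose and 8 fell against DMSO, and 5 rose and 10 fell against nativ, led against DMSO by Stt3b (0.77), an oligosaccharyltransferase subunit, Srpr (−0.59), the signal recognition particle receptor, and Spcs3 (0.68), of signal peptidase. Of 27 tested other ATF4 targets 8 rose and 11 fell against DMSO, and 10 rose and 11 fell against nativ. Cebpb (−2.20), a transcription factor, and Gpt2 (−1.70), a transaminase, fell, and Cth (3.49), which makes cysteine, rose. The ATF4 targets thus did not move one way.

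The DMSO and nativ organoids share code and genotype and differ by treatment. No member was called (edgeR, 0 of 36, with 0% of all genes higher and 0% lower), and DESeq2 also called 0 members, against 1.1% of all genes. At an unadjusted p under 0.05 there were 12 members, against 14.6% of all genes. The groups did not overlap for 4 members on the higher side and 7 on the lower, against 14.1% of all genes. The smallest p among sensors and factors was for Ddit3, whose values are given above, at −0.90 in log2 (SE 0.271, edgeR adjusted p = 0.291). Atf6 was at 0.30 (SE 0.0957, edgeR adjusted p = 0.295), Ern1 at 0.32 (SE 0.121), Creb3l2 at 0.33 (SE 0.133) and Trib3 at 0.30 (SE 0.211). Among chaperones, Manf was at −0.53 (SE 0.175, edgeR adjusted p = 0.295), with 68.2, 68.3 and 59.7 CPM in DMSO and 75.8, 111.3 and 83.6 in nativ. Dnajb9 (−0.42, SE 0.149), P4hb (−0.41, SE 0.178), Hspa5 (−0.27, SE 0.123) and Hsp90b1 (−0.25, SE 0.134) were also negative, and Hyou1 (0.25, SE 0.108) positive. Of the degradation genes, Sel1l was at 0.30 (SE 0.102), Sec61b at −0.48 (SE 0.198), Syvn1 at 0.15 (SE 0.0826) and Edem2 at 0.13 (SE 0.0845). Asns, Chac1 and Sesn2 were at 0.48 (SE 0.248), 0.48 (SE 0.334) and 0.34 (SE 0.132).

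In this comparison the change across all genes went with transcript length. Across 15720 genes, which are not independent replicates and share their libraries, the distance of nativ replicate 2 from the other nativ libraries had a Spearman correlation of −0.59 with merged exon length, and the difference between DMSO and nativ means one of 0.39, or 0.09 without that library. The members did not all follow length. The 3 shortest, Sec61b, Manf and Ssr4, with 552, 868 and 922 exonic bases, were negative, and Sel1l, Creb3l2 and Atf6, with 6300, 7212 and 8127, were positive. The longest, Edem1, with 10771, was at −0.10, and the short Chac1, with 1569, at 0.48. Without nativ replicate 2, Manf was at −0.26, Sec61b at −0.14, Ssr4 at 0.10 and Creb3l2 at 0.19. The part of length in these values was not tested further.

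The gut comparison set PG_KO against ctr tissue. No member was called (edgeR, 0 of 36, with 0% of 18043 genes higher and 0% lower). Jup itself, with groups that did not overlap, was at −2.30 (SE 0.231, edgeR adjusted p = 0.163) and not called. DESeq2 also called 0 members, against 2.54% of all genes. At an unadjusted p under 0.05 there were 5 members, against 15% of all genes. Of the 36, 27 had a positive and 9 a negative log2 change, with a median of 0.28 over members and −0.03 over all genes. Of the 16 chaperones, 14 were positive, with a median of 0.48. The groups did not overlap for Atf4, Hsp90b1, Pdia6, Canx, Manf and Chac1 on the higher side and Dnajb9 on the lower, against 18.6% of all genes.

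The chaperone values show how the ctr libraries differed among themselves. Hsp90b1 was at 665, 651.5 and 1078 CPM in ctr and 1473, 1229 and 1172 CPM in PG_KO. The highest ctr value was that of replicate 3, just below the PG_KO range. Hsp90b1 stood at 0.70 in log2 (SE 0.271, edgeR adjusted p = 0.33). Pdia6 was at 200.1, 185 and 294 CPM in ctr and 357, 378 and 330 in PG_KO, or a change of 0.66 in log2 (SE 0.226, edgeR adjusted p = 0.33). Manf was at 132, 153 and 191 CPM in ctr and 255, 230.5 and 225 in PG_KO, or a change of 0.59 in log2 (SE 0.202, edgeR adjusted p = 0.33). Hspa5 was at 758, 709.6 and 1115 CPM in ctr and 1343, 1312 and 937 in PG_KO, where the groups overlapped, at 0.49. Canx, the membrane lectin calnexin, was at 0.48 (SE 0.205, edgeR adjusted p = 0.334) and Sdf2l1 at 0.59 (SE 0.254, edgeR adjusted p = 0.336). Dnajb9 went the other way, at 32.2, 29.2 and 27.1 CPM in ctr and 23.6, 16.9 and 19.2 in PG_KO, with −0.54 (SE 0.193, edgeR adjusted p = 0.33).

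The summed chaperone level was 4254, 4459 and 7342 TPM in ctr replicates 1, 2 and 3 and 8068, 7693 and 6551 TPM in PG_KO. Replicate 3 had the highest ctr value for 15 of 16 chaperones and 7 of 7 degradation genes, but for 4 of 10 sensors and factors. All 3 PG_KO libraries lay above both other ctr libraries for 14 of 16 chaperones, 3 of 7 degradation genes and 2 of 10 sensors and factors. The shares of all genes with these orders were not computed, so these counts describe the members only. Without ctr replicate 3, 7 members were called higher, namely Hsp90b1 (1.05), Pdia4 (0.76), Pdia6 (0.95), P4hb (0.90), Sdf2l1 (0.95), Hyou1 (0.98) and Asns (0.79), with edgeR adjusted p from 0.0383 for Pdia6 to 0.0498 for P4hb. None was called lower, and among all genes 2% were higher and 5.91% lower. The lone pair of ctr libraries then sets the control spread. Ctr replicates 1 and 2, lower in summed chaperones than the other gut libraries, were also lower in general epithelial markers (summed values above). They were higher in goblet markers, which were 9700, 7830 and 3440 CPM in ctr and 500, 1390 and 977 in PG_KO. Within PG_KO the orders differed, with chaperones lowest in replicate 3 and general epithelial markers lowest in replicate 2. Plasma and B cell markers, from cells with a large ER, were 663, 547 and 253 CPM in ctr and 114, 165 and 202 in PG_KO, lower where chaperones were higher. The share of mitochondrial reads split the libraries the same way, at 0.101% and 0.123% in ctr replicates 1 and 2, 0.0361% in ctr replicate 3 and 0.0481% to 0.0581% in PG_KO. The Spearman correlation of the PG_KO to ctr difference with exon length was −0.23 across 15720 genes. The part of these in the result was not tested.

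The sensors and factors showed no common direction in gut, with 4 positive and 6 negative changes and a median of −0.20. Xbp1 was at 228, 247 and 353 CPM in ctr and 274, 322 and 263 in PG_KO, overlapping, at 0.06 (SE 0.222). Atf4 was at 233, 251 and 224 CPM in ctr and 296, 274 and 281 in PG_KO, with no overlap and a difference of 0.28 in log2 (SE 0.143, edgeR adjusted p = 0.366). Creb3l2 was at −0.39 (SE 0.194, edgeR adjusted p = 0.36), Atf6 at −0.24 (SE 0.142), Eif2ak3 at −0.22 (SE 0.148) and Trib3 at 0.96 (SE 0.574). Trib3 stood at 2.61, 2.11 and 1.95 CPM in ctr and 7.15, 4.04 and 1.5 in PG_KO. Ern2 was far more abundant in gut than in T75 organoids, at 13.0, 13.0 and 38.1 CPM in ctr and 8.63, 21.7 and 21.5 in PG_KO.

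Degradation genes differed little between the gut groups, from −0.28 to 0.27. Herpud1 (−0.28, SE 0.277) was at 126, 116 and 220 CPM in ctr, with replicate 3 highest, and 123, 138 and 118 in PG_KO. Sec61b was at 0.27 (SE 0.24), Edem2 at 0.21 (SE 0.186) and Sel1l at 0.14 (SE 0.138). Of the stress targets, Asns was at 59.8, 54.1 and 83.2 CPM in ctr and 90.8, 108.1 and 82.9 in PG_KO, with 0.52 (SE 0.211, edgeR adjusted p = 0.331). Chac1 was at 3.47, 2.93 and 2.91 CPM against 3.74, 4.04 and 3.69, and its log2 change was 0.31 (SE 0.267). Sesn2 was at 0.30 (SE 0.309). None of the listed other pathway genes was called in gut, although 22 of 23 genes of ER entry and glycosylation and 18 of 27 other ATF4 targets had a positive log2 change. Among all genes 8558 of 18043 were positive. Within ctr, replicate 3 was highest for 21 of those 23 genes and 19 of those 27. The ATF4 targets with the smallest p were Psat1 (1.00) and Shmt2 (1.06), of serine and glycine metabolism, and Mthfd2 (0.66), of mitochondrial folate metabolism.

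The change in gut (PG_KO minus ctr) was then tested against the change in organoids (Tamoxifen minus DMSO) in 1 model of 12 libraries. For 13 of 36 members the changes differed (edgeR adjusted p below 0.05), against 36.4% of all genes, so the count by itself does not stand out. Of the 13, 11 had a positive and 2 a negative difference. Of all 19141 genes tested, 3002 had a positive and 3956 a negative called difference. Xbp1 differed by 2.47 (SE 0.227, edgeR adjusted p = 1.63e-05), being at −2.46 in organoids and 0.06 in gut. Dnajc10 differed by 2.18 (SE 0.234, edgeR adjusted p = 4.86e-05), being at −2.05 and 0.18. Atf4 differed by 1.07 (SE 0.192, edgeR adjusted p = 0.0014), and Chac1 by 2.16 (SE 0.492, edgeR adjusted p = 0.00577). Edem1 and Ern2, which rose in organoids, were the negative ones, at −1.09 (SE 0.155, edgeR adjusted p = 0.000328) and −8.94. The median over all genes was −0.14 and over members 0.41. Without ctr replicate 3 the count was 23, the 10 added genes including Hsp90b1, Pdia3, Pdia4, Pdia6, Calr, Canx and Hyou1. Of the 19793 genes tested in that fit, 4197 had a positive and 3648 a negative called difference. Tissue and culture differ in cell types throughout, and that part was not tested.

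**Figure D5:**
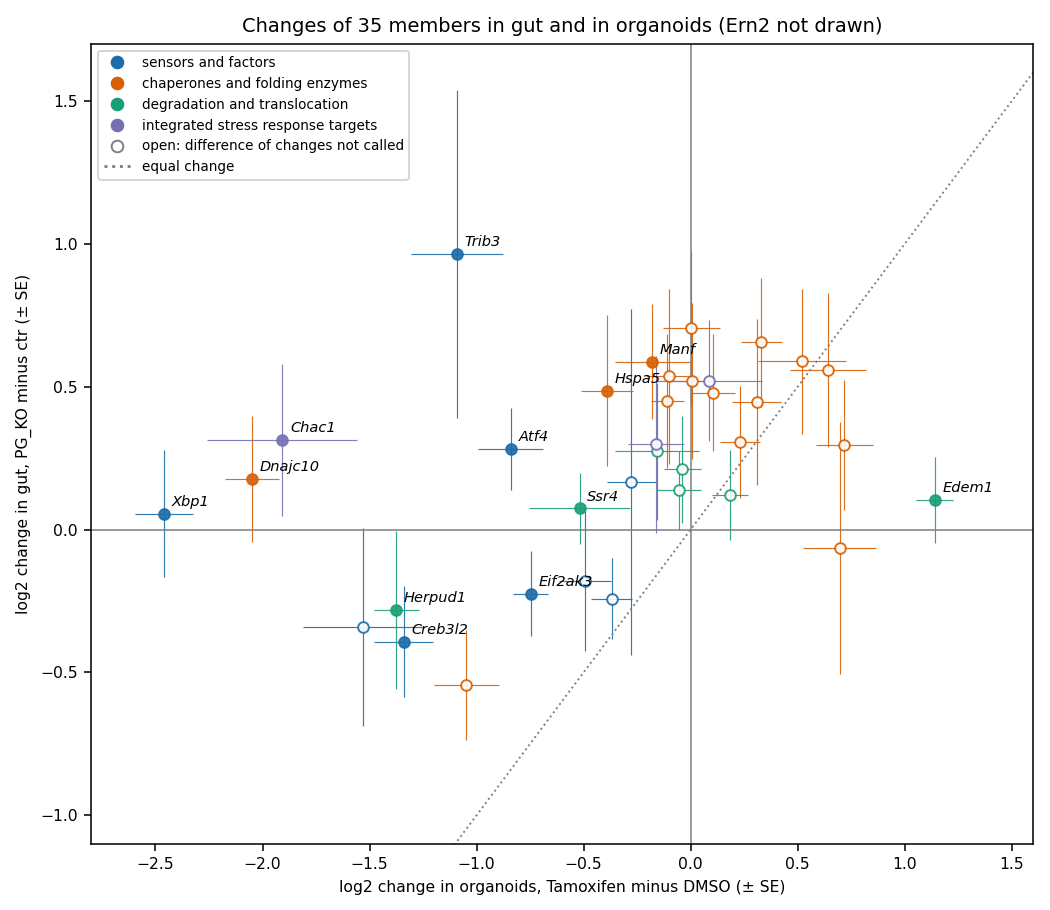
Log2 change in gut (vertical axis, PG_KO minus ctr) against log2 change in organoids (horizontal axis, Tamoxifen minus DMSO) for each member except Ern2, ± SE, coloured by role; filled symbols are members whose changes differ at an adjusted p below 0.05, and the dotted line marks equal change. Xbp1, Dnajc10 and Chac1 lie left, near −2.46, −2.05 and −1.91 in organoids, and near zero in gut (0.06, 0.18 and 0.31).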

How the data were processed

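Poly(A) RNA of 9 organoid and 6 gut libraries was sequenced (integrity number at least 7.7, per the labels' protocols). The authors deposited expected counts, reads per gene not scaled between libraries; 10.4% to 13.7% of a library's values are fractional. Per the submitters' processing notes the tools were STAR 2.7.2b for alignment to GRCm38.p6, featureCounts 1.6.4 for counting, cutadapt 2.5, bcl2fastq 2.20.0.422 and DESeq2. The strand setting is not given in the sources used here.

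Values were rounded to whole reads and fitted in edgeR 4.0.16 (R 4.3.3; TMM scaling, its default low-count filter by group, robust quasi-likelihood F test), with p-values adjusted by Benjamini-Hochberg across every gene tested and called under 0.05. Organoid groups shared 1 fit of 9 libraries, gut had 1 of 6, and 12 libraries served the comparison of changes. All 36 members passed the filter in each, Ern2 among organoids only through the Tamoxifen group. SEs were derived from the log2 change and its F. CPM and TPM were computed from assigned reads and the merged exon length in the tables. Scripts were tested on simulated data. The labels do not say that replicates are separate animals or cultures, so p-values measure the spread between these libraries.

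The members and lists were chosen with earlier results of these data known. All 36 were described by level. Full statistics were given, per comparison, for the smallest p in each role (5 sensors and factors, 6 chaperones, 4 degradation genes, 3 stress targets) and, of other pathway lists, the 3 smallest p were named. Members named beside a library effect were chosen after their values were seen. Alternatives were DESeq2 1.42.0, limma-voom 3.58.1, library totals, other filters, only the compared libraries, a replicate block and leaving out each library. Replicate pairs within a group differed by more than sampling noise, but far less in the Tamoxifen group than elsewhere. Chi-square per degree of freedom was 2.21 to 3.72 for Tamoxifen pairs and 7.99 to 203 for pairs of the other groups. Promoters were RefSeq's, of GRCm38.p6.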

Additional observations from a re-analysis of the deposited data

Results flagged for a closer look

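For 13 members the gut change (PG_KO minus ctr) and the organoid change (Tamoxifen minus DMSO) differed in the test of the difference itself (edgeR quasi-likelihood test over 12 libraries). Among all genes 36.4% did, so the count of members by itself does not stand out. The values below are gut minus organoid differences in log2. Among sensors and factors they were 2.473 for Xbp1, 2.005 for Trib3, 1.069 for Atf4, 0.8879 for Creb3l2, 0.4663 for Eif2ak3 and −8.938 for Ern2, whose organoid change rests on 1 read in the DMSO group. Among chaperones they were 2.18 for Dnajc10, 0.8353 for Hspa5 and 0.7225 for Manf. The degradation and translocation genes gave 1.054 for Herpud1, 0.5412 for Ssr4 and −1.086 for Edem1. Chac1, a stress response target, gave 2.162. None of the 13 was called in gut. Manf and Ssr4 were not called in Tamoxifen against DMSO organoids either, though both were called lower against nativ. Several of these calls were unstable. That of Hspa5 was lost in 9 of 12 fits with 1 library left out and with a replicate block. That of Eif2ak3 was lost without ctr replicate 2, without any 1 of the DMSO libraries, with a replicate block and with library totals. That of Trib3 was lost without ctr replicate 2, DMSO replicate 1, PG_KO replicate 1 or Tamoxifen replicate 2, and those of Trib3 and Chac1 with limma-voom.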

How the results depend on the processing

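Of members higher in Tamoxifen than DMSO organoids there were 8, and 5 to 8 when 1 library was left out (5 without Tamoxifen replicate 3). Among all genes 5571 of 16449 were higher, and 5083 of 16726 without Tamoxifen replicate 3. Against nativ there were 6, with 10 when libraries were scaled by their totals, which added P4hb, Calr, Sdf2l1 and Asns and removed Creb3l1 from the lower calls. Among all 16449 genes 5506 were higher against nativ, and 6040 when scaled by totals. That scaling moved the median of all genes from 0.01 to 0.13 and of members from −0.09 to 0.03, so relative to all genes the members stayed lower. In gut the higher members numbered 0 to 7 when 1 library was left out (7 without ctr replicate 3, where 2% of all genes were higher). The members with unequal change in gut and organoids numbered 13, and 10 (without ctr replicate 2) to 23 (without ctr replicate 3). Among all genes, 2628 positive and 3659 negative differences of 19609 were called without ctr replicate 2. Without ctr replicate 3 they were 4197 and 3648 of 19793. Some log2 changes not called with all libraries turned sign when 1 was left out. Among the members given full statistics these were Asns against DMSO (−0.1394 to 0.5367, called without DMSO replicate 1), Trib3 (−0.02115 to 0.5026) and Chac1 (−0.1164 to 0.8067) in DMSO against nativ, Herpud1 in gut (−0.4292 to 0.134) and the gut minus organoid difference of Asns (−0.05746 to 0.7514). Other members turned too, Ssr4 in DMSO against nativ among them. Positive members there went from 17 to 21 without nativ replicate 2, and in gut from 27 to 31 without ctr replicate 3. No called member turned sign under any alternative run. With a replicate block, 8 members were higher and 14 lower against DMSO, 7 and 15 against nativ, 0 were called in DMSO against nativ or in gut, and 11 had unequal change. Among all 16449 genes the block gave 5532 higher and 5291 lower against DMSO, and 5468 and 5370 against nativ. For unequal change it gave 2808 positive and 3721 negative of 19141. The labels do not state that replicate numbers mark pairs. Deviations of same-numbered libraries correlated at −0.193 to 0.298 and those of differently numbered libraries at −0.346 to 0.177, ranges that overlap and do not settle whether pairs exist. DESeq2 called 10 members higher and 14 lower against DMSO and 8 and 15 against nativ. Among all 16449 genes it called 5634 higher and 5418 lower against DMSO, and 5625 and 5461 against nativ. Leaving out a library of a group leaves a pair to set its spread. Depth limits Ern2 in T75 organoids, where it had at most 1 read in a library.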

Other observations

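The DMSO organoids differed among themselves in ATF4 targets. Replicate 1 had the highest level of the group for 24 of 27 other ATF4 targets, with a median log2 distance of 0.64 from the other DMSO libraries, and for all 3 stress response members (median 1.12). Replicate 2 was lowest for 21 of those 27. The shares of all genes with these orders were not computed. Slc7a11, the cystine importer, was at 858, 336 and 448 CPM in DMSO replicates 1, 2 and 3. Ddit3 ran the other way, with its lowest DMSO value, 39.9 CPM, in replicate 1.

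Ctr replicate 3, highest of its group for 15 of 16 chaperones, had the highest ctr level of Ern2 (38.1 CPM), Creb3l1 (190.4 CPM), Pdia5 (39.4 CPM) and Agr2 (546 CPM, against 111 and 127 CPM), and the lowest summed goblet markers of the ctr group (3440 CPM). These genes were chosen after their values were seen, and the share of all genes highest in this library was not computed.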
